A study of Homo sapiens with 15 samples.

Results

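Molm-13 cells that received cytarabine at 1 µM and then FL-Fc-DM1 were compared with untreated Molm-13 cells by RNA sequencing. Molm-13 is a human acute myeloid leukemia line of monocytic type with a KMT2A fusion gene and an internal tandem duplication in FLT3. The double treatment consisted of 3 days in 1 µM cytarabine followed by 24 hours in 1 nM FL-Fc-DM1 without cytarabine, and the control cells grew for the same 4 days in plain medium. Each of the 2 groups has 3 libraries, so the comparison uses 6 of the 15 libraries of the series, chosen by their labels. Of 20375 genes in the deposited table, 12355 passed a filter on low counts and were tested. To test where the double treatment differed from related ones, 3 libraries of cells kept in 1 µM cytarabine for all 4 days and 3 libraries pretreated with 0.5 µM cytarabine before the same FL-Fc-DM1 step were also used. No group with FL-Fc-DM1 alone or with cytarabine withdrawn alone was analysed here, so the effect of the conjugate and that of ending cytarabine cannot be told apart. Titles, cell line entries and design all give Molm-13 for the treated cells, but the treatment protocol calls them THP-1, which is a different monocytic leukemia line. Separate cultures are not stated for the replicates, so p-values measure only the spread between these libraries, which may be technical.

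FLT3 is a receptor tyrosine kinase of early blood cells that is switched on by FLT3 ligand and signals through STAT5, the RAS and MAPK pathway and AKT, and the tandem duplication keeps it active without ligand. Cytarabine is a nucleoside analog that is phosphorylated inside the cell by deoxycytidine kinase and stalls DNA synthesis, which activates the checkpoint kinases. The name FL-Fc-DM1 is not explained in the labels. By common usage FL stands for FLT3 ligand, Fc for the constant part of an antibody and DM1 for mertansine, a maytansinoid that attaches to tubulin and blocks microtubule assembly. Cells that cannot complete mitosis may arrest, die or differentiate, and monocytic leukemia cells can take up the gene programme of macrophages.

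Control libraries held total counts of 13.91 to 16.97 M (mega) and libraries of the double treatment 10.86 to 11.41 M. Levels below are CPM, counts scaled to a common library size, as mean ± SD of 3 libraries unless each library is given, and a log2 change is given with its standard error. Replicates of the double treatment differed more than sampling noise, with a chi-square per degree of freedom of 3.86 to 4.97 against 1.755 to 2.39 in control. The share of counts in mitochondrially encoded genes was 4.64 ± 0.128% for control and 6.303 ± 0.0699% for the double treatment, and that in the 79 genes of cytosolic ribosomal proteins was 11.1 ± 0.319% and 8.47 ± 0.385%. Neither pair of groups overlapped, and the exact two-sided permutation test gave p = 0.1 for each, the smallest that 3 against 3 libraries allow. Of 10 genes chosen as markers of a monocytic leukemia line all were tested, and 9 stood at 10 CPM or more in control and 8 after the double treatment. Their summed level was 1643 to 1666 CPM in control and 14822 to 15299 CPM after treatment, and without the lysozyme gene LYZ it was 1263 to 1277 CPM and 1348 to 1365 CPM. Of the 10 markers 6 rose and 4 fell against control (median log2 change 0.34).

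After the double treatment, genes of monocytes and macrophages were among those that had risen most, and genes induced by amino acid shortage among those that had fallen most. By the quasi-likelihood test of edgeR, 8798 of 12355 genes (71.2%) differed from control at a Benjamini-Hochberg adjusted p under 0.05, 4422 higher (35.8%) and 4376 lower (35.4%). A change of at least 2-fold besides was seen in 2447 genes (19.8%), 1628 that rose (13.2%) and 819 that fell (6.63%), and the median log2 change of all genes was 0.0087. Counts for gene lists below are to be read against these shares. Of the 12355 genes, 8877 had no overlap between the libraries of the 2 groups, so absence of overlap in a named gene is common. The genes of largest rise and fall in each comparison were named only if the groups did not overlap, so its absence there follows from the choice. Genes under the filter's level of 10 counts in a median-sized library in any control library were tested because other libraries passed, so such members could hardly be called lower. Where a list holds many of them, the count over the members that reached this level in all 3 control libraries is given too. List medians cover all tested members, so for a list with many members under this level the median is a description only. FPR3, a formyl peptide receptor of macrophages, was at 0 counts in all control libraries and at 15.3, 17.5 and 14.5 CPM after treatment, at least 249-fold higher when control is set to 3 counts over the group. A4GALT, which makes the globotriaosyl lipid Gb3, was also without a control count and was at least 186-fold higher. With 3 or fewer counts over the control libraries, FCN1, the ficolin of monocytes, rose by 690.3-fold (95% counting interval 236 to 3351), the formyl peptide receptor gene FPR1 by 394-fold (95% counting interval 109 to 3263) and the apoptotic cell receptor gene MERTK by 269.9-fold (95% counting interval 91.9 to 1312). OLR1, a receptor for oxidised lipoprotein, rose from 0.0879 ± 0.0479 to 40.7 ± 4.298 CPM. APOE, a lipid carrier protein of macrophages, was 0.432, 0.716 and 0.823 CPM in the control libraries and 118, 134 and 138 CPM after the double treatment, and HMOX1, heme oxygenase 1, was 0.864, 0.358 and 0.999 CPM in the control libraries and 192, 192 and 206 CPM after the double treatment. In both genes every treated library lay far above every control library, with changes of 195-fold and 255-fold. ZNF366, a zinc finger gene of dendritic cells, SLAMF7, a surface receptor of immune cells, and S100A9, which myeloid cells secrete in inflammation, rose 184-fold, 144-fold and 129-fold, the first from 0.165 ± 0.177 to 32.97 ± 2.65 CPM.

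The largest fall by fitted log2 change that the naming rule admits was in STC2, a stress-induced secreted glycoprotein, which was 88.1, 87.2 and 86.4 CPM in the control libraries and 0.0916, 0.3505 and 1.103 CPM after the double treatment. Every treated library was below every control library, and the fall was 167-fold (log2 change -7.39 ± 0.18, edgeR adjusted p = 2.65e-22). SLC6A9, a glycine transporter, fell from 11.6 ± 1.299 to 0.0612 ± 0.05297 CPM, a ratio of 193-fold (95% counting interval 53.2 to 1599.9) from 3 or fewer counts in the treated group. INHBE, an inhibin subunit, fell from 15.5 ± 1.398 to 0.175 ± 0.304 CPM, and ADM2, a peptide hormone, from 20.2 ± 0.755 to 0.455 ± 0.1902 CPM. ANGPT1, the angiopoietin ligand of the TIE2 receptor, fell from 13.4 ± 0.553 to 0.332 ± 0.1102 CPM, and SHISA2 fell from 58.1 ± 2.405 to 2.12 ± 0.725 CPM. ALDH1L2, a mitochondrial folate enzyme, TRIB3, a pseudokinase induced by stress, and PHGDH, the first enzyme of serine synthesis, fell 23.3-fold, 21.1-fold and 16.2-fold. ULBP1, a ligand of the NKG2D receptor of natural killer cells, fell from 13.5 ± 1.24 to 0.661 ± 0.256 CPM. The potassium channel subunit gene KCNG1 and the phosphatase gene PPM1E fell 16.1-fold and 19.02-fold. In these bulk samples fewer cells that express a gene and less of its RNA per cell cannot be told apart, and every change is relative to a library's total. Except where counts are given as a ratio or bound, the largest adjusted p among the genes valued in this and the preceding paragraph was 6.16e-13 (edgeR).

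**Figure D1:**
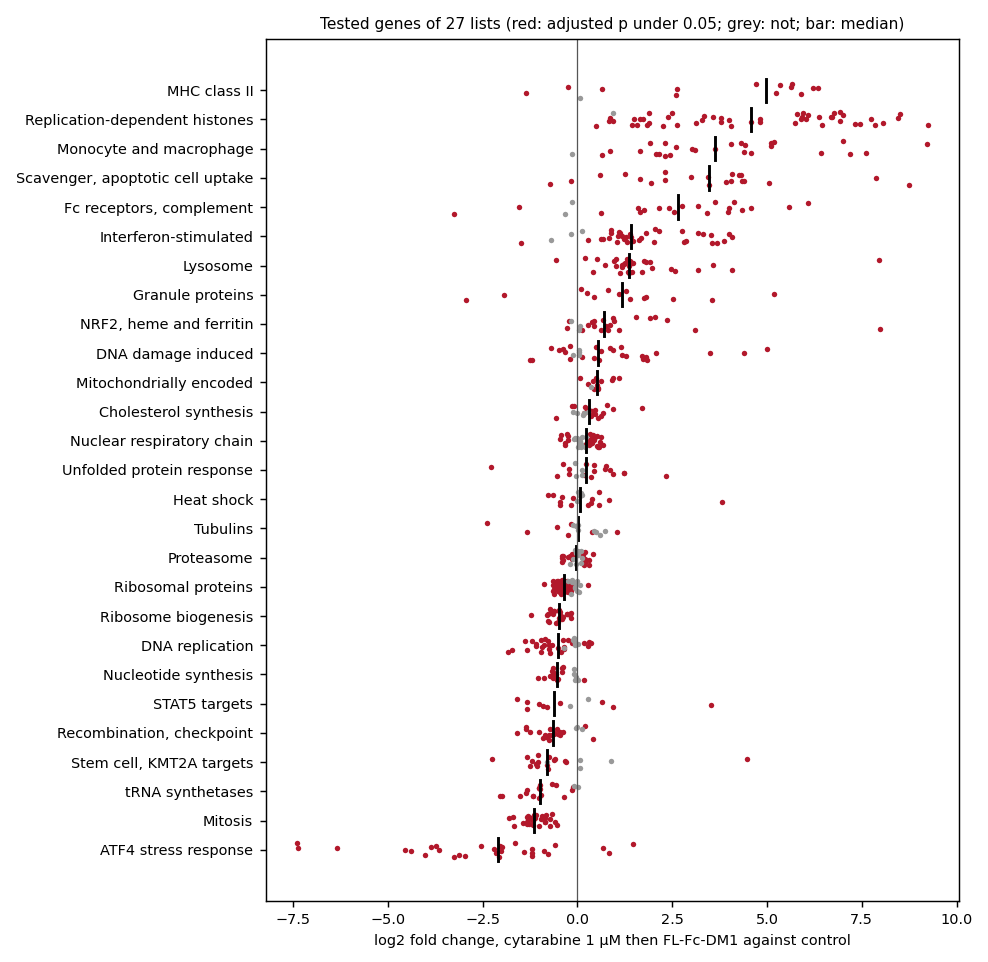
Log2 fold change of each tested gene (x axis) in 27 gene lists (rows, ordered by median) for cytarabine 1 µM then FL-Fc-DM1 against control, with called genes in red, others in grey and a black bar at each list's median. MHC class II and replication-dependent histones have the highest medians (4.98 and 4.59), and the ATF4 stress response has the lowest (-2.11). Of the 51 histone genes, 36 were under the filter's level in control, and of the 14 MHC class II genes 4 were. Medians of lists with many such genes are descriptions only.

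FLT3 itself fell little. It was 397, 403 and 386 CPM in the control libraries and 329, 309 and 330.4 CPM after the double treatment, so that every treated library was below every control library, a change of 1.22-fold (log2 change -0.29 ± 0.033, edgeR adjusted p = 1.29e-08). Most other growth factor receptors on the list rose: of 21 tested receptor genes, 15 were higher and 4 lower, with a median log2 change of 0.61. CSF1R, the receptor that macrophages need for survival, rose from 11.3 ± 0.698 to 68.1 ± 3.51 CPM. KIT, the stem cell factor receptor, rose from 1.01 ± 0.245 to 22.2 ± 2.51 CPM, and IL7R, the interleukin 7 receptor, from 11.9 ± 1.25 to 81.7 ± 2.89 CPM. INSR, the insulin receptor, and EPOR, the erythropoietin receptor, fell 2.34-fold and 2.36-fold.

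Genes that STAT5 is known to induce were mostly lower, 7 of 12 falling and 3 rising (median -0.62). PIM1, a survival kinase, was 261, 259 and 255 CPM in the control libraries and 137, 129.5 and 146 CPM after the double treatment. All treated libraries were below all control libraries. SOCS2, a feedback inhibitor of cytokine receptors, fell from 116 ± 2.47 to 38.1 ± 2.402 CPM, and CCND2, cyclin D2, from 74.03 ± 1.097 to 29.5 ± 2.22 CPM. IL2RA, the interleukin 2 receptor alpha chain, was a member that rose (from 3.91 ± 0.444 to 6.16 ± 0.713 CPM). Feedback and early genes of the MAPK pathway went both ways, 10 of 23 higher and 8 lower. Of the 20 that reached the filter's level in control, 7 rose and 8 fell. The phosphatase gene DUSP4 rose from 0.571 ± 0.148 to 17.1 ± 0.983 CPM, PHLDA1 from 3.78 ± 1.08 to 44.4 ± 1.97 CPM and the early transcription factor gene FOS from 18.4 ± 0.544 to 52.9 ± 1.02 CPM. SPRED1, an inhibitor of RAS signalling, and ETV5, a factor downstream of it, fell 2.91-fold and 1.77-fold. Over this and the preceding paragraph the largest adjusted p of a valued gene was 0.000614 (edgeR).

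Of 30 tested genes that DNA damage is known to induce, 18 rose and 8 fell (median 0.53). CDKN1A, the cell cycle inhibitor p21, was 275, 282 and 293 CPM in the control libraries and 992, 1007 and 1024 CPM after the double treatment, a rise of 3.55-fold. MDM2, a ubiquitin ligase, rose from 293 ± 10.6 to 969 ± 22.1 CPM. The control and treated libraries of both genes did not overlap. The death-promoting gene PMAIP1 and CCNG1, cyclin G1, are members that fell, 2.399-fold and 1.61-fold. The BCL2 family split evenly, 6 of 15 higher and 6 lower, which was near the shares of all genes. BCL2, the survival protein that venetoclax blocks, was 740.1, 734 and 708 CPM in the control libraries and 212, 213 and 207 CPM after the double treatment. No treated library reached a control library, and the fall was 3.45-fold (log2 change -1.79 ± 0.035). MCL1, another survival gene, rose 1.25-fold, and the death-promoting genes BMF and BCL2L11 rose 1.798-fold and 1.46-fold.

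Among genes of cytarabine uptake and metabolism, 10 of 16 were lower and 4 higher. DCK, the deoxycytidine kinase that activates the drug, fell from 93.7 ± 5.45 to 56.4 ± 6.12 CPM. SAMHD1, which breaks down the active triphosphate, was 116, 123 and 116 CPM in the control libraries and 664, 646 and 619 CPM after the double treatment, a rise of 5.44-fold with no overlap between groups. Enzymes of the nucleotide pool fell, with NME1 down 1.51-fold, TYMS, thymidylate synthase, 1.66-fold and DUT, the dUTP hydrolase, 1.85-fold, while RRM2B, a damage-induced ribonucleotide reductase subunit, rose 1.41-fold. Of 13 tested genes of ATP-driven transporters, 7 rose and 4 fell. ABCC1 and ABCC10, pumps known for drug efflux, rose 1.84-fold and 2.09-fold, and ABCA7 rose 3.92-fold. ABCB4 and ABCD3 fell 2.805-fold and 1.25-fold. The largest adjusted p of a valued gene in this and the preceding paragraph was 0.000342 (edgeR).

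**Figure D2:**
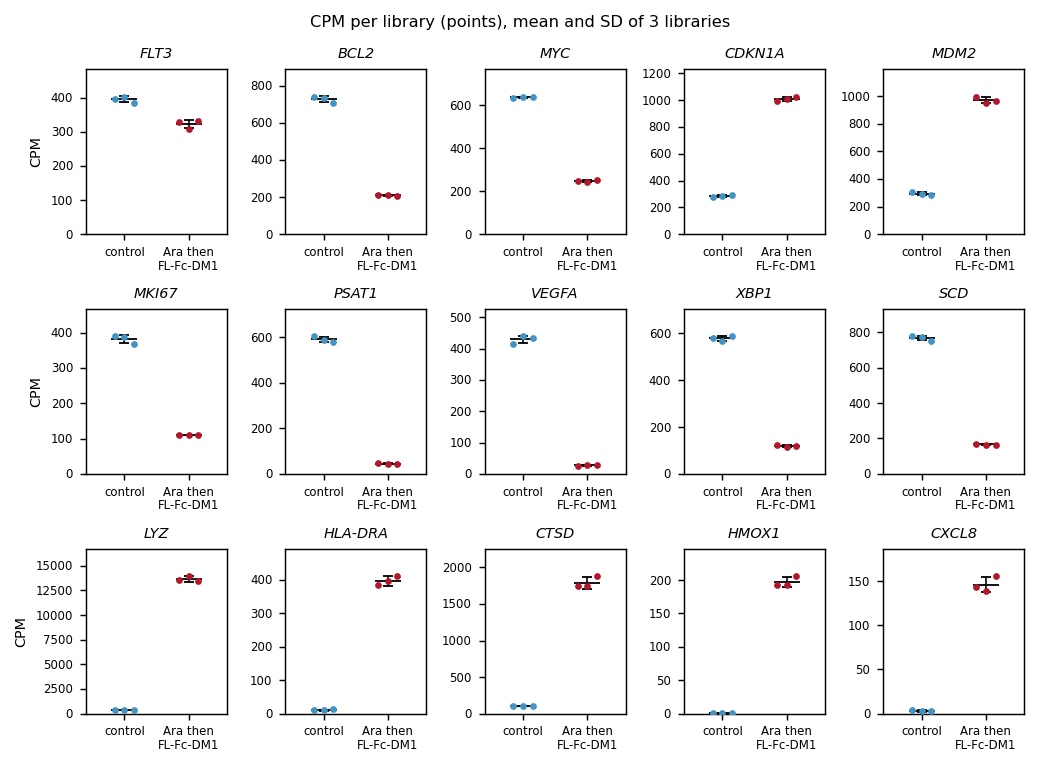
CPM of 15 genes (y axes from 0) in the 3 control libraries (blue) and the 3 libraries of the double treatment (red), with the mean and SD in black. FLT3 shows a small fall, BCL2, MYC, MKI67, PSAT1, VEGFA, XBP1 and SCD larger falls, and CDKN1A, MDM2, LYZ, HLA-DRA, CTSD, HMOX1 and CXCL8 rises, with no overlap between groups.

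All 29 mitosis genes were lower than in control (median -1.15). MKI67, the proliferation marker Ki-67, was 389, 387 and 367 CPM in the control libraries and 109.9, 109 and 110.0 CPM after the double treatment, a fall of 3.48-fold (log2 change -1.80 ± 0.046). Every treated library was below every control library. CENPF, a kinetochore protein, fell from 239 ± 4.46 to 74.2 ± 7.36 CPM, and TOP2A, the topoisomerase that untangles chromosomes, from 438 ± 9.54 to 215 ± 9.14 CPM. Promoters of mitotic genes are known to hold the cell cycle homology region, a binding site of the DREAM and MuvB complexes. In RefSeq promoters of build GRCh38.p14, from 250 bases before to 50 bases after the gene start, its core TTTGAA was found on either strand in 17 of 22 matched members (77.3%) and in 16.02% of 22114 promoters. CCAAT, the site of the factor NF-Y, was found in 16 of the same 22 (72.7%) against 36.2% of all. Stretches of 130 bases are shown for the 3 called members of smallest p with a match before the start, because these genes moved together. Capitals mark TTTGAA or, on the other strand, TTCAAA. MKI67 is at chr10:128126424-128126553, minus strand, TOP2A at chr17:40418017-40418146, minus strand and KIF11, a spindle motor that fell from 104 ± 2.301 to 42.2 ± 2.45 CPM, at chr10:92593000-92593129, plus strand. The stretches of MKI67 and KIF11 end at the base before the start and that of TOP2A covers bases -250 to -121.
MKI67: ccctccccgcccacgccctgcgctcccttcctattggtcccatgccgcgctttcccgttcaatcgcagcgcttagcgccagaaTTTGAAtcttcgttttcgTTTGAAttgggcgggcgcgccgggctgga
TOP2A: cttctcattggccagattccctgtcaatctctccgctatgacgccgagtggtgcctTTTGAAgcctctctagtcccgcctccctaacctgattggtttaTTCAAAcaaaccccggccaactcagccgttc
KIF11: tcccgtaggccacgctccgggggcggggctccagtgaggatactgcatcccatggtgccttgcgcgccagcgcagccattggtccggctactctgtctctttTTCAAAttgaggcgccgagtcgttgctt
A match in these letters is a description of the sequence only.

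DNA replication genes were mostly lower, 24 of 35 falling and 4 rising (median -0.50). The helicase subunits MCM6 and MCM7 and the primase subunit PRIM1 fell 2.4997-fold, 2.29-fold and 3.31-fold. PCNA, the clamp of the replication fork, and LIG1, a DNA ligase, rose 1.24-fold and 1.28-fold. Of 24 genes of recombination, Fanconi repair and the checkpoint, 19 fell and 2 rose (median -0.65). CHEK1, the checkpoint kinase that answers stalled forks, fell from 45.5 ± 0.664 to 15.1 ± 1.48 CPM, and BRCA1 and EXO1 fell 1.87-fold and 2.56-fold, while CHEK2 and ATR rose 1.32-fold and 1.14-fold. G1 cyclins, their kinases and inhibitors fell in 17 of 22 cases, among them CDK4 (1.802-fold) and CDKN2C (1.91-fold), and CCNE1, cyclin E1, rose 2.01-fold.

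Tubulins, the proteins that DM1 binds, had a median log2 change of 0.00 over 15 tested genes, with 2 higher and 5 lower. TUBA1B, the most abundant alpha-tubulin gene of the named ones, was 597, 590.1 and 579.9 CPM in the control libraries and 522, 514 and 531 CPM after the double treatment, and TUBA1A fell 1.198-fold. The 2 that rose were TUBA4A (from 10.6 ± 1.26 to 21.8 ± 1.31 CPM) and TUBB4B (from 61.6 ± 4.202 to 79.7 ± 4.296 CPM), and TUBE1, the epsilon-tubulin of centrioles, fell from 62.8 ± 4.02 to 11.9 ± 1.42 CPM. Tubulin genes resemble each other, so the authors' counting could split reads between them. Microtubule regulators fell in 12 of 26 cases and rose in 7. The polymerase CKAP5, the spindle protein CKAP2 and the depolymerase KIF2A fell 1.76-fold, 1.64-fold and 2.11-fold, while VASH1, which trims the end of alpha-tubulin, and TACC3, a spindle protein, rose 2.44-fold and 1.45-fold.

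Of 51 tested replication-dependent histone genes 15 reached the filter's level in all control libraries, and all 15 of them rose. The other 36 did not reach it there and were tested because other libraries passed, and 35 of them were called higher, a direction that this choice of genes sets. As a description only, the median log2 change over all 51 was 4.59, and setting 8 genes without a control count at their bound made it 4.05. H2BC12, a histone H2B gene, was 23.6, 20.6 and 24.05 CPM in the control libraries and 81.1, 86.7 and 85.4 CPM after the double treatment, and H2AC6 rose from 22.3 ± 0.739 to 70.1 ± 1.03 CPM. Both were above control in every library. H1-5, a linker histone, had 3 or fewer control counts and rose to 15.9, 20.6 and 21.4 CPM, a ratio of 304-fold (95% counting interval 104 to 1478). Most mRNAs of these genes end in a stem loop without a poly(A) tail and the libraries were made by capture on oligo(dT), so these counts cover only the polyadenylated part, and near-identical copies may share reads. Over this and the preceding 3 paragraphs the largest adjusted p of a valued gene was 0.00194 (edgeR).

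Most genes of ribosomes and of nucleotide synthesis fell. MYC, the growth regulator, was 633, 638 and 639.9 CPM in the control libraries and 247, 242 and 253 CPM after the double treatment, a fall of 2.58-fold with no overlap (log2 change -1.37 ± 0.034). In its network and the polyamine genes 7 of 20 fell and 6 rose, and the share that fell was near that of all genes. ODC1, which starts polyamine synthesis, fell 2.34-fold, and MXI1, a MYC antagonist, 1.64-fold, while SAT1, which breaks polyamines down, rose from 51.98 ± 2.93 to 243 ± 23.000 CPM and MXD1, another MYC antagonist, 1.78-fold. All 25 ribosome biogenesis genes fell (median -0.49), with the nucleolar proteins NPM1 (from 1818 ± 47.7 to 1034 ± 39.8 CPM), FBL (2.35-fold) and WDR43 (1.69-fold). Of 79 ribosomal protein genes 67 fell and 1 rose (median -0.36). RPL5, RPLP0 and RPSA fell 1.84-fold, 1.57-fold and 1.56-fold, and RPL28 rose 1.203-fold. Processed pseudogenes can share reads with these genes. Purine and pyrimidine synthesis genes fell in 17 of 23 cases (median -0.54), among them PAICS (2.05-fold), ATIC (1.58-fold) and IMPDH2 (1.62-fold).

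The ATF4 stress response, which supplies amino acids when they run short, had the lowest median of the 27 lists plotted, -2.11, with 27 of 30 genes lower and 24 of them at least 2-fold. ATF4, its transcription factor, was 408, 425 and 447 CPM in the control libraries and 186, 178 and 194 CPM after the double treatment, a fall of 2.29-fold. PSAT1, an enzyme of serine synthesis, was 603, 588 and 579 CPM in the control libraries and 46.8, 43.1 and 44.1 CPM after the double treatment. All treated libraries of PSAT1 were far below all control libraries, and its log2 change was -3.72 ± 0.048. The 3 members that rose include SLC7A11, the cystine transporter (from 139 ± 1.43 to 220.5 ± 14.3 CPM), and NUPR1 (from 4.18 ± 0.354 to 11.6 ± 0.946 CPM). Against cells kept in 1 µM cytarabine the ATF4 list had a median of -0.046, with 9 genes lower, 7 higher and 14 called neither way. Of 20 tRNA synthetase genes 18 fell and none rose (median -1.001), with GARS1, AARS1 and IARS1 down 4.13-fold, 3.96-fold and 2.84-fold. The ATF4 motif TGATGNAAT was found in 1 of 15 matched promoters of the list (6.67%), that of FGF21, and in 1.06% of all. With 1 match these shares cannot be compared. Over this and the preceding paragraph the largest adjusted p of a valued gene was 2.16e-06 (edgeR).

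Monocyte and macrophage genes rose in 26 of 27 tested cases and fell in none (median 3.63), and 14 of them reached the filter's level in control, of which 13 rose. LYZ, lysozyme, was 366, 390.4 and 379.7 CPM in the control libraries and 13558, 13951 and 13457 CPM after the double treatment, a rise of 36.1-fold (log2 change 5.17 ± 0.032, edgeR adjusted p = 4.89e-35). CYBB, the catalytic chain of the phagocyte NADPH oxidase, rose from 64.5 ± 2.06 to 549 ± 24.6 CPM. All treated libraries of both genes were above all control libraries. Of the 8 oxidase genes 7 rose, NCF1 10.7-fold and NCF4 2.59-fold, and RAC2 fell 1.29-fold. NCF1 has near-identical pseudogenes that can take its reads. Granule proteins rose in 12 of 14 cases. SRGN, the granule proteoglycan, rose from 1519 ± 41.1 to 5168 ± 216 CPM and PRTN3, proteinase 3, from 161 ± 4.699 to 392 ± 41.8 CPM, whereas CTSG, cathepsin G, fell from 208 ± 3.104 to 27.1 ± 1.07 CPM and MPO, myeloperoxidase, from 20.6 ± 0.397 to 5.34 ± 1.61 CPM. Of 10 S100 genes 8 rose, as did 4 of the 6 that reached the filter's level in control. S100A8 rose from 0.338 ± 0.08204 to 30.1 ± 3.97 CPM and S100A6 from 10.1 ± 0.778 to 60.2 ± 6.97 CPM.

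Regulators of myeloid fate split, 14 of 26 higher and 10 lower. Of the 21 that reached the filter's level in control, 9 rose and 10 fell. IRF8, SPI1, which encodes PU.1, and CEBPD rose 2.04-fold, 1.78-fold and 2.38-fold. MYB, which holds progenitors in an immature state, fell from 621 ± 8.37 to 359.9 ± 23.1 CPM, and GFI1 1.34-fold. Stem cell genes and targets of the KMT2A fusion fell in 15 of 20 cases (median -0.80). HOXA9, a homeobox gene that KMT2A fusions keep on, was 151, 152 and 154 CPM in the control libraries and 75.3, 72.9 and 75.4 CPM after the double treatment, a fall of 2.04-fold with no overlap. Its partner MEIS1 and MEF2C fell 1.68-fold and 2.31-fold, and BCL11A fell from 80.03 ± 3.596 to 16.8 ± 1.101 CPM. KIT, described above, was the only member of the list that rose. KMT2A fell 1.59-fold. Chromatin regulators tied to leukemia were lower in 20 of 25 cases, with BMI1, HDAC2 and the KMT2A cofactor DOT1L down 2.23-fold, 2.08-fold and 2.06-fold, and IDH1 and TET2 up 1.47-fold and 1.45-fold.

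Surface and uptake genes of phagocytes rose. Scavenger receptor and apoptotic cell uptake genes were higher in 19 of 21 cases (median 3.47) and in 10 of the 12 that reached the filter's level in control, with CD36, a receptor for oxidised lipid, from 5.51 ± 0.105 to 110.0 ± 6.84 CPM, the macrophage protein CD68 from 54.97 ± 3.08 to 270.4 ± 14.5 CPM and ANXA1, annexin A1, from 3.67 ± 0.294 to 122 ± 7.59 CPM. GAS6, a ligand that bridges apoptotic cells to MERTK, fell 1.13-fold. Fc receptor and complement genes rose in 18 of 22 cases (median 2.65) and in 10 of the 14 that reached the filter's level in control. C3, the central complement protein, was 6.11, 4.94 and 7.11 CPM in the control libraries and 283, 294 and 308 CPM after the double treatment. FCGR2B, the inhibitory Fc receptor, rose from 4.997 ± 0.423 to 88.3 ± 4.404 CPM, which its near copies make uncertain, and FCGRT, the receptor that recycles antibody, rose from 17.96 ± 1.36 to 163 ± 12.2 CPM. CD55, which shields cells from complement, and FCRLA fell 2.89-fold and 9.63-fold. Integrins rose in 9 of 12 cases, ITGB2 2.897-fold, ITGB7 4.76-fold and ITGA6 from 7.15 ± 0.7701 to 138 ± 8.15 CPM, and ITGAL fell 1.43-fold. Pattern recognition and inflammasome genes rose in 22 of 26 cases and in 16 of the 20 that reached the filter's level in control. TLR2 rose from 56.7 ± 1.73 to 248 ± 8.82 CPM, TLR1 5.73-fold and TLR8 21.7-fold, and TLR9 fell 2.45-fold. Among surface proteins that leukemia drugs aim at, 16 of 20 rose. CD33 rose from 83.5 ± 0.977 to 111 ± 9.05 CPM, CD38 from 20.6 ± 1.39 to 131 ± 2.66 CPM and CD93 from 153 ± 1.97 to 419.7 ± 22.2 CPM, and CD70 fell 1.299-fold. Over this and the preceding 2 paragraphs the largest adjusted p of a valued gene was 0.00531 (edgeR).

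MHC class II genes, which present antigen to T cells, had the highest median of the 27 lists plotted. They were higher in 11 of 14 cases (median 4.98) and in 7 of the 10 that reached the filter's level in control. The other 4 were all called higher, so this median and its rank are descriptions only. The 2 genes that fell, RFXAP (2.57-fold) and RFXANK (1.18-fold), encode factors that bind class II promoters. The call of RFXANK is lost without treated replicate 1 and without control replicate 3. HLA-DRA, the alpha chain of the class II receptor HLA-DR, was 9.51, 9.38 and 12.1 CPM in the control libraries and 383, 395 and 411 CPM after the double treatment, a rise of 38.1-fold. CD74, the invariant chain, rose from 157 ± 4.32 to 972 ± 52.4 CPM, and HLA-DMB, which loads peptide, from 1.67 ± 0.534 to 83.6 ± 2.54 CPM. CIITA, the master regulator of the class II genes, rose from 15.6 ± 0.8598 to 95.2 ± 3.62 CPM. MHC class I and its peptide supply rose in 12 of 17 cases, with HLA-B up 2.36-fold, HLA-C 3.32-fold and the chaperone gene CALR 2.34-fold, and TAP2 and PSMB8 down 1.14-fold and 1.24-fold. Polymorphic HLA genes may lose or share reads in the authors' alignment. Of 26 ligands for T and natural killer cells 12 rose and 9 fell, and of the 21 that reached the filter's level in control 9 rose and 9 fell. CD86, a costimulator, VSIR and TNFSF10, the death ligand TRAIL, rose 1.81-fold, 2.47-fold and 5.05-fold, while PVR and NCR3LG1, ligands of activating receptors of natural killer cells, fell 2.31-fold and 2.5005-fold.

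Interferon-stimulated genes rose in 34 of 38 tested cases and 1 fell (median 1.40), and of the 31 that reached the filter's level in control 28 rose. TRIM22, an antiviral protein, was 128, 124 and 125 CPM in the control libraries and 329.5, 333 and 328 CPM after the double treatment. The groups did not overlap. SAMD9L, another antiviral protein, rose from 18.8 ± 0.967 to 77.4 ± 1.35 CPM. XAF1, the member that fell, promotes apoptosis (from 187 ± 4.28 to 66.9 ± 0.699 CPM). The interferon response element is known from promoters of these genes. Its core, GAAA, any 2 bases and GAAA again, was found on either strand in 14 of 22 matched members (63.6%) and in 3.81% of 22114 promoters. The stretches below are from the 3 called members of smallest p with a match before the start and end at the base before it, and capitals mark the core. IFI6, which rose from 1.01 ± 0.133 to 16.9 ± 2.66 CPM, is at chr1:27672193-27672322, minus strand. BST2, the tether of budding virus, rose from 60.7 ± 2.604 to 108 ± 4.67 CPM and is at chr19:17405631-17405760, minus strand, where 2 matches overlap. OAS3, a sensor of double-stranded RNA, rose from 0.834 ± 0.116 to 9.83 ± 1.804 CPM and is at chr12:112938344-112938473, plus strand.
IFI6: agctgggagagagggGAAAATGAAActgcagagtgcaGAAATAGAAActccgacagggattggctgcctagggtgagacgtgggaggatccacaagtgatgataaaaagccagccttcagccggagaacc
BST2: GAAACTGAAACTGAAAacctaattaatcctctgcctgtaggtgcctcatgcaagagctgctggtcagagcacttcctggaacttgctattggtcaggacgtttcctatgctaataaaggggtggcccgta
OAS3: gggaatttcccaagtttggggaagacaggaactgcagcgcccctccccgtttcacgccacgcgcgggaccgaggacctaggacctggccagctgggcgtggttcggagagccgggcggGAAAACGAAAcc
No binding was measured at these sites.

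NF-kappaB targets and chemokines rose in 16 of 25 cases and fell in 4. Of the 18 that reached the filter's level in control, 11 rose and 4 fell. CXCL8, the neutrophil chemokine interleukin 8, was 4.07, 2.36 and 2.35 CPM in the control libraries and 144, 139 and 156 CPM after the double treatment, a rise of 49.5-fold. ICAM1, an adhesion molecule, rose from 15.6 ± 1.36 to 42.98 ± 2.84 CPM, and CXCR4, a receptor that keeps blasts in the marrow, from 141 ± 3.49 to 225 ± 2.51 CPM. TNF fell from 47.98 ± 1.58 to 27.3 ± 0.353 CPM, and TNFAIP3, a brake on NF-kappaB, from 142 ± 2.996 to 46.4 ± 2.41 CPM. Over this and the preceding 2 paragraphs the largest adjusted p of a valued gene was 0.00857 (edgeR).

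Lysosomal genes rose in 33 of 34 cases (median 1.36). CTSD, the protease cathepsin D, was 104, 102 and 109 CPM in the control libraries and 1745, 1745 and 1882 CPM after the double treatment. PSAP, precursor of the saposins that help break down sphingolipids, rose from 226 ± 0.933 to 2701 ± 56.8 CPM, and GRN, progranulin, from 144 ± 3.91 to 1294 ± 43.6 CPM. These 3 genes did not overlap between groups, and NAGLU was the only member that fell (1.48-fold). NRF2 targets, heme and ferritin genes rose in 19 of 24 cases. FTH1 and FTL, the chains of the iron store ferritin, rose from 555 ± 6.71 to 4766 ± 182 CPM and from 1231 ± 43.5 to 6341 ± 304 CPM, and both have many pseudogenes that can share reads. TXN, thioredoxin, and MAFG fell 1.17-fold and 1.22-fold. NFE2L2, which encodes NRF2, was at 120.4 ± 7.58 and 125 ± 12.3 CPM and was not called (edgeR adjusted p = 0.392), though it passed without treated replicate 3. Metallothionein and zinc genes fell in 5 of 7 cases, MT1G from 13.1 ± 1.31 to 6.85 ± 1.16 CPM and MT1E from 17.2 ± 0.966 to 12.5 ± 0.663 CPM, and their copies may share reads. The zinc exporter SLC30A1 fell 1.18-fold and MTF1, their activator, rose 1.45-fold.

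Lipid genes split by pathway. Of 18 sterol efflux and LXR target genes 14 rose, with CYP27A1, a sterol hydroxylase, from 1.47 ± 0.322 to 95.4 ± 0.938 CPM and LIPA, the lysosomal lipase, from 126 ± 4.29 to 442 ± 19.99 CPM, while SREBF1 fell from 102 ± 2.05 to 23.7 ± 1.68 CPM. Fatty acid synthesis fell in 9 of 14 cases. SCD, the desaturase that makes oleate, was 776, 772 and 752 CPM in the control libraries and 171, 163 and 166 CPM after the double treatment, a fall of 4.596-fold. ACACA and ACSL3 fell 2.42-fold and 2.61-fold, and ACSL1 and ELOVL5 rose 1.48-fold and 1.15-fold. Cholesterol synthesis genes rose in 15 of 23 cases by small amounts (median 0.30), INSIG1 1.71-fold, STARD4 1.59-fold and MSMO1 1.92-fold, and SREBF2, their activator, fell 1.47-fold.

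Of 34 glycolysis and hypoxia genes 16 rose and 12 fell. VEGFA, the vessel growth factor, was 416, 438 and 432 CPM in the control libraries and 25.5, 28.04 and 28.5 CPM after the double treatment, a fall of 15.7-fold, and TXNIP, an inhibitor of glucose uptake, fell from 1121 ± 12.7 to 465 ± 21.4 CPM. SLC16A3, the lactate exporter, PFKFB3 and GPI rose 3.08-fold, 3.17-fold and 1.66-fold. In the unfolded protein response 12 of 21 genes rose, among them the chaperones HSP90B1 (1.81-fold) and PDIA3 (1.8995-fold), whereas XBP1, one of its transcription factors, fell from 579 ± 9.999 to 119.5 ± 5.33 CPM and ATF6, another, 1.44-fold. Heat shock genes split evenly, 7 of 19 each way, which was near the shares of all genes. HSP90AA1, HSPA1B and HSPA8 rose 1.48-fold, 1.49-fold and 1.28-fold, and the mitochondrial chaperones HSPD1 and HSPA9 fell 1.37-fold and 1.73-fold. Proteasome genes also split near the shares of all genes, 10 of 31 higher, such as PSMD3 (1.33-fold), and 10 lower, such as PSMA6 (1.33-fold). The second count was 6 without treated replicate 1.

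Of 13 mitochondrially encoded genes 12 rose (median 0.52), MT-ND4, a subunit of complex I, from 3811 ± 169.6 to 7169 ± 183 CPM, MT-ND5 1.46-fold and MT-CO1 1.32-fold. Nuclear genes of the respiratory chain rose in 22 of 43 cases and fell in 7 (median 0.23), with NDUFA4 and SDHD up 1.602-fold and 1.44-fold and NDUFS1 down 1.38-fold. Except for NFE2L2, the largest adjusted p of a valued gene in this and the preceding 3 paragraphs was 0.00169 (edgeR). Genes that a symbol names uniquely were ranked by TPM, the authors' level scaled for gene length. The most abundant of them after the double treatment were EEF1A1, MT-CO1, LYZ, MT-CO3, MT-CO2, FTL, TPT1, FTH1, MT-ATP6 and RPL7. LYZ stood at 474 ± 12.9 TPM in control and 17104 ± 361 TPM after treatment, and EEF1A1, a translation elongation factor, at 39327 ± 968 and 30791 ± 997 TPM. On this scale LYZ was the third most abundant of the genes so ranked in the treated cells.

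Markers of other cell types were low. Of 11 T and natural killer cell markers 5 were tested, and their sum was 49.5 to 53.1 CPM in control and 63.2 to 65.8 CPM after treatment. CD2 and CD8B had no count in the 6 libraries. NKG7 rose from 19.7 ± 1.81 to 53.1 ± 1.58 CPM, and the T cell receptor genes TRAC and CD3D fell from 18.999 ± 0.588 to 5.96 ± 0.775 CPM and from 11.6 ± 0.152 to 2.58 ± 0.2701 CPM. The 8 B cell markers summed to 3.58 to 3.998 CPM in control and 0.459 to 1.75 CPM after treatment, with MS4A1, PAX5 and VPREB1 at 0. The 10 erythroid markers summed to 14.04 to 15.99 CPM in control and 5.68 to 6.89 CPM after treatment, almost all of it EPOR, with HBG1, ALAS2, KLF1, AHSP and SLC4A1 at 0. The 8 megakaryocyte markers summed to 3.27 to 4.08 CPM in control and 8.795 to 10.4 CPM after treatment, of which GP1BA rose from 2.23 ± 0.28000 to 5.702 ± 0.618 CPM, with PF4 and PPBP at 0. The 10 markers of stroma and epithelium summed to 98.6 to 105 CPM in control and 287 to 322 CPM after treatment, nearly all of it PECAM1, which monocytes also carry (from 100.3 ± 2.95 to 300.0 ± 17.6 CPM), and EPCAM, KRT19, COL1A2, COL3A1, CDH1 and CDH5 were at 0. The largest adjusted p of a valued gene here was 5.4e-07 (edgeR).

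Against cells kept in cytarabine at 1 µM for all 4 days, the double treatment raised mitosis genes and lowered interferon-stimulated genes. This comparison shares the 3 treated libraries with the one above, and it covers both the arrival of FL-Fc-DM1 and the loss of cytarabine. Of 12355 genes 5646 (45.7%) were called by edgeR, 2906 higher (23.5%) and 2740 lower (22.2%), and 515 (4.17%) differed by at least 2-fold, 169 higher (1.37%) and 346 lower (2.80%). The median log2 change of all genes was -0.0036, and 5636 of the 12355 genes had no overlap between the libraries of the 2 groups. All 29 mitosis genes were higher than in cytarabine alone (median 0.82). MKI67 was 64.04, 57.7 and 60.3 CPM in the libraries of cytarabine alone and 109.9, 109 and 110.0 CPM after the double treatment, and CDC20, the activator of the anaphase-promoting complex, was 6.61, 6.71 and 6.76 CPM in the libraries of cytarabine alone and 30.5, 35.8 and 30.3 CPM after the double treatment. No library of one group reached the other in either gene, and the rises were 1.802-fold and 4.82-fold. CENPF and TOP2A rose 2.06-fold and 1.61-fold. DNA replication genes rose in 20 of 35 cases and fell in none (median 0.29), and 10 of 24 recombination and checkpoint genes rose. Histone genes rose in 25 of 51 cases and fell in 9, and of the 38 that reached the filter's level in all libraries of cytarabine alone 18 rose and 9 fell. Tubulin genes were higher in 7 of 15 cases and lower in 3, with TUBA1B at 341 ± 7.01 and 522 ± 8.39 CPM in cytarabine alone and after the double treatment and TUBB4B at 43.3 ± 6.698 and 79.7 ± 4.296 CPM.

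FLT3 was 548, 541 and 533 CPM in the libraries of cytarabine alone and 329, 309 and 330.4 CPM after the double treatment, a fall of 1.67-fold (log2 change -0.74 ± 0.033, edgeR adjusted p = 1.84e-15), and the groups did not overlap. Of 12 STAT5 targets 6 fell and 1 rose (median -0.30). IL2RA, the largest fall, was 55.6, 50.2 and 48.997 CPM in the libraries of cytarabine alone and 6.69, 5.34 and 6.43 CPM after the double treatment, and PIM1 fell from 244 ± 1.596 to 137 ± 8.14 CPM, SOCS2 1.45-fold and CCND2 1.69-fold. In IL2RA the libraries of cytarabine alone stood far above both others. Other large falls were in OTOF (from 14.9 ± 2.44 to 2.399 ± 0.7695 CPM), GGT5, a glutathione-cleaving enzyme (from 13.03 ± 0.824 to 2.15 ± 0.731 CPM), PPFIA4 (from 18.97 ± 2.86 to 5.16 ± 1.45 CPM), SPIB, a transcription factor of the PU.1 family (from 18.5 ± 1.26 to 5.21 ± 0.677 CPM), and ABCA1, the pump that loads cholesterol on lipoprotein (from 72.4 ± 5.29 to 18.6 ± 3.37 CPM). The glucose regulator TXNIP fell from 1219.8 ± 41.9 to 465 ± 21.4 CPM.

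Interferon-stimulated genes were lower in 32 of 38 cases and higher in none (median -0.64). SAMD9L was 125, 123 and 131 CPM in the libraries of cytarabine alone and 78.7, 77.5 and 75.99 CPM after the double treatment, a fall of 1.63-fold without overlap, and XAF1 fell 1.92-fold. The damage-induced genes fell in 19 of 30 cases and 1 rose (median -0.26), with MDM2 down 1.16-fold. CDKN1A, at 1058 ± 21.6 and 1008 ± 15.7 CPM, was not called (edgeR adjusted p = 0.0531), though DESeq2 called it. Ribosomal protein genes fell in 64 of 79 cases (median -0.21), while ribosome biogenesis genes rose in 22 of 25 (median 0.41). Stem cell genes and KMT2A fusion targets fell in 11 of 20 cases, HOXA9 1.34-fold. NF-kappaB targets fell in 11 of 25 and rose in 5.

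Chaperone and supply genes were higher than in cytarabine alone. Heat shock genes rose in 15 of 19 cases (median 0.39), HSPA8 from 997 ± 16.8 to 1742 ± 39.9 CPM and HSP90AA1 from 632 ± 2.74 to 1150.0 ± 28.6 CPM. The unfolded protein response rose in 16 of 21 (median 0.44), CALR 1.53-fold. Cholesterol synthesis rose in 17 of 23 (median 0.41), MSMO1 1.77-fold, and nucleotide synthesis in 17 of 23, PAICS 1.33-fold. Proteasome genes rose in 20 of 31, and ODC1 rose from 36.7 ± 0.756 to 72.3 ± 2.35 CPM. Of 7 metallothionein and zinc genes 6 rose, MT1G from 1.81 ± 0.722 to 6.85 ± 1.16 CPM. Nuclear respiratory chain genes rose in 24 of 43 cases, a count that was 15 without treated replicate 2, 13 in a fit of the 2 groups alone and 11 with limma voom.

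Some macrophage genes also stood higher. LYZ was 6519.9, 6746 and 6524 CPM in the libraries of cytarabine alone and 13558, 13951 and 13457 CPM after the double treatment and FCN1 4.51, 5.27 and 6.52 CPM in the libraries of cytarabine alone and 46.4, 44.8 and 40.4 CPM after the double treatment. Every library of the double treatment was above every library of cytarabine alone, by 2.07-fold and 8.13-fold. FPR3 rose from 2.26 ± 0.602 to 15.8 ± 1.56 CPM, CLEC5A, an activating receptor of myeloid cells, from 4.24 ± 1.15 to 27.2 ± 2.94 CPM, MGAM2 from 2.13 ± 0.492 to 11.01 ± 1.29 CPM and IL1B, the inflammatory cytokine, from 4.31 ± 0.575 to 18.4 ± 1.48 CPM. HLA-DRA rose from 165 ± 6.11 to 396 ± 13.97 CPM and CD74 1.401-fold, and 9 of 14 class II genes were higher and 1 lower. Monocyte and macrophage genes as listed rose in 14 of 27 cases and fell in 4, and APOE, at 128 ± 2.396 and 130.2 ± 10.7 CPM, was not called (edgeR adjusted p = 0.766). Lysosomal genes rose in 18 of 34 cases, 11 in a fit of the 2 groups alone, with CTSD up 1.396-fold and PSAP 1.49-fold. Except for CDKN1A and APOE, the largest adjusted p of a valued gene in this and the preceding 4 paragraphs was 1.25e-05 (edgeR).

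**Figure D3:**
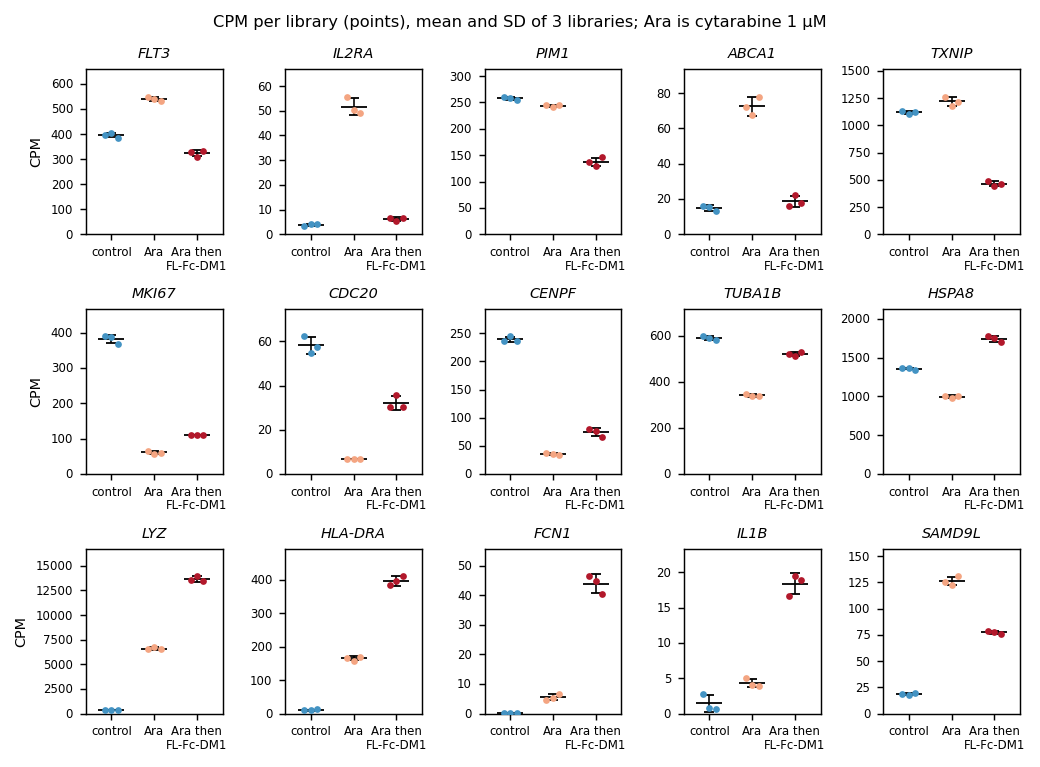
CPM of 15 genes (y axes from 0) in control (blue), cytarabine 1 µM for 4 days (orange) and cytarabine 1 µM then FL-Fc-DM1 (red), with points for the 3 libraries of each group and the mean and SD in black. FLT3, IL2RA, PIM1, ABCA1, TXNIP and SAMD9L are lower after the double treatment than in cytarabine alone, and the other 9 genes are higher.

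The pretreatment dose was compared between cells that had 1 µM and cells that had 0.5 µM cytarabine before the same FL-Fc-DM1 step. Of 12355 genes 3494 (28.3%) were called by edgeR, 1770 higher (14.3%) and 1724 lower (14.0%) after the higher dose, 268 (2.17%) differed by at least 2-fold, 205 higher (1.66%) and 63 lower (0.510%), and the median of all genes was 0.0013. No overlap between the libraries of the 2 doses was seen in 4617 of the 12355 genes. Of 27 histone genes that reached the filter's level in all libraries of the lower dose 23 were higher and none lower after the higher dose, and H1-5 rose from 2.65 ± 0.822 to 19.3 ± 2.95 CPM. The largest rise was in PALD1, a paladin phosphatase-like gene, which was 4.095, 4.16 and 3.697 CPM in the libraries pretreated at 0.5 µM and 35.3, 34.1 and 30.2 CPM in those pretreated at 1 µM. PALD1 was 8.34-fold higher on average after the higher dose, and absence of overlap was a condition for naming it. KIF26B, a kinesin-like gene, COL7A1, a collagen, A4GALT and DUSP4 rose 4.84-fold, 4.77-fold, 4.54-fold and 4.49-fold. HMOX1 rose from 51.02 ± 1.65 to 197 ± 7.81 CPM, C3 from 98.9 ± 5.75 to 295 ± 12.4 CPM, APOE from 54.96 ± 3.8005 to 130.2 ± 10.7 CPM, SLAMF7 from 50.3 ± 1.08 to 111 ± 3.48 CPM and KIT from 7.92 ± 0.5405 to 22.2 ± 2.51 CPM. Interferon-stimulated genes were higher in 27 of 38 cases (median 0.50), SAMD9L 1.52-fold. The damage-induced genes were higher in 18 of 30, a count that was 11 in a fit of the 2 groups alone, with MDM2 up 1.23-fold. Mitosis genes were higher in 20 of 29 cases and lower in none (median 0.39), TOP2A 1.398-fold and CENPF 1.41-fold. MKI67 rose 1.14-fold, a call lost without replicate 3 of the lower dose.

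Most genes of ribosome biogenesis and of granules fell after the higher dose, and so did 2 Fc receptor genes. FCAR, the receptor for immunoglobulin A, was 28.9, 28.6 and 27.4 CPM in the libraries pretreated at 0.5 µM and 11.5, 11.9 and 7.99 CPM in those pretreated at 1 µM. FCGR1A, the high-affinity receptor for immunoglobulin G, was 59.5, 64.1 and 64.99 CPM in the libraries pretreated at 0.5 µM and 25.3, 25.8 and 27.7 CPM in those pretreated at 1 µM. The 2 groups did not overlap in either gene. The cytoskeleton regulator gene RIPOR2, NAV3 and SCG2, a granin of secretory granules, fell 2.74-fold, 2.44-fold and 2.301-fold, and MT1G 2.44-fold. S100A9 fell from 112 ± 6.597 to 66.7 ± 1.61 CPM and PRTN3 from 629.8 ± 11.2 to 392 ± 41.8 CPM, and granule genes fell in 9 of 14 cases. Ribosome biogenesis genes were lower in 23 of 25 cases (median -0.26), ribosomal protein genes in 36 of 79 and nuclear respiratory chain genes in 20 of 43, with 42 and 23 of the last 2 lists called neither way. MYC fell from 353 ± 1.47 to 247 ± 5.58 CPM, PIM1 from 228 ± 3.996 to 137 ± 8.14 CPM and FLT3 from 386 ± 4.97 to 323 ± 11.7 CPM. LYZ fell 1.13-fold, and HLA-DRA, at 386 ± 1.85 and 396 ± 13.97 CPM, was not called (edgeR adjusted p = 0.521). Except for HLA-DRA, the largest adjusted p of a valued gene in this and the preceding paragraph was 0.00534 (edgeR).

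**Figure D4:**
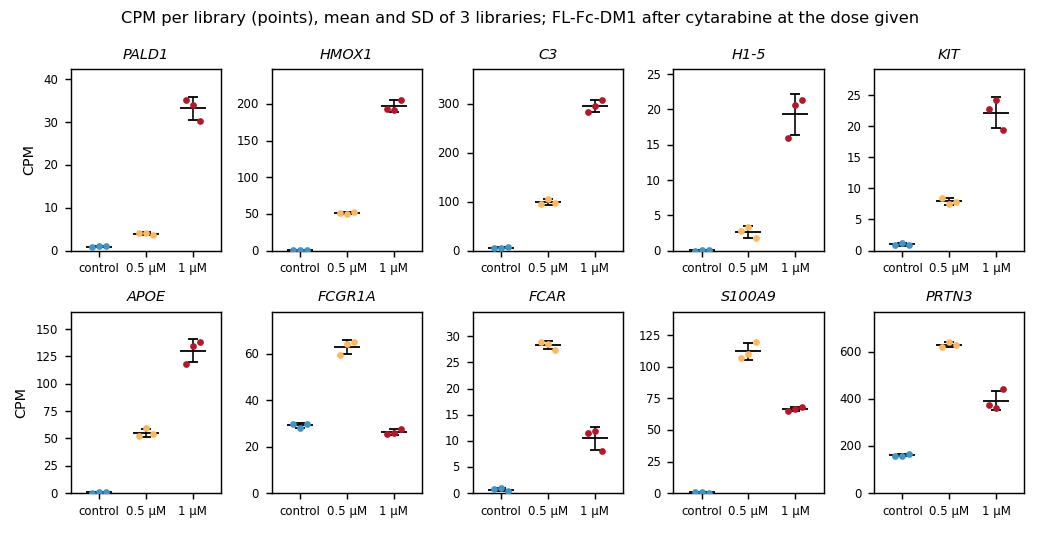
CPM of 10 genes (y axes from 0) in control (blue) and after FL-Fc-DM1 that followed cytarabine at 0.5 µM (orange) or 1 µM (red), with points for the 3 libraries of each group and the mean and SD in black. The first 6 genes are higher after the higher dose and the last 4 are lower, with no overlap between the 2 dose groups.

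**Figure D5:**
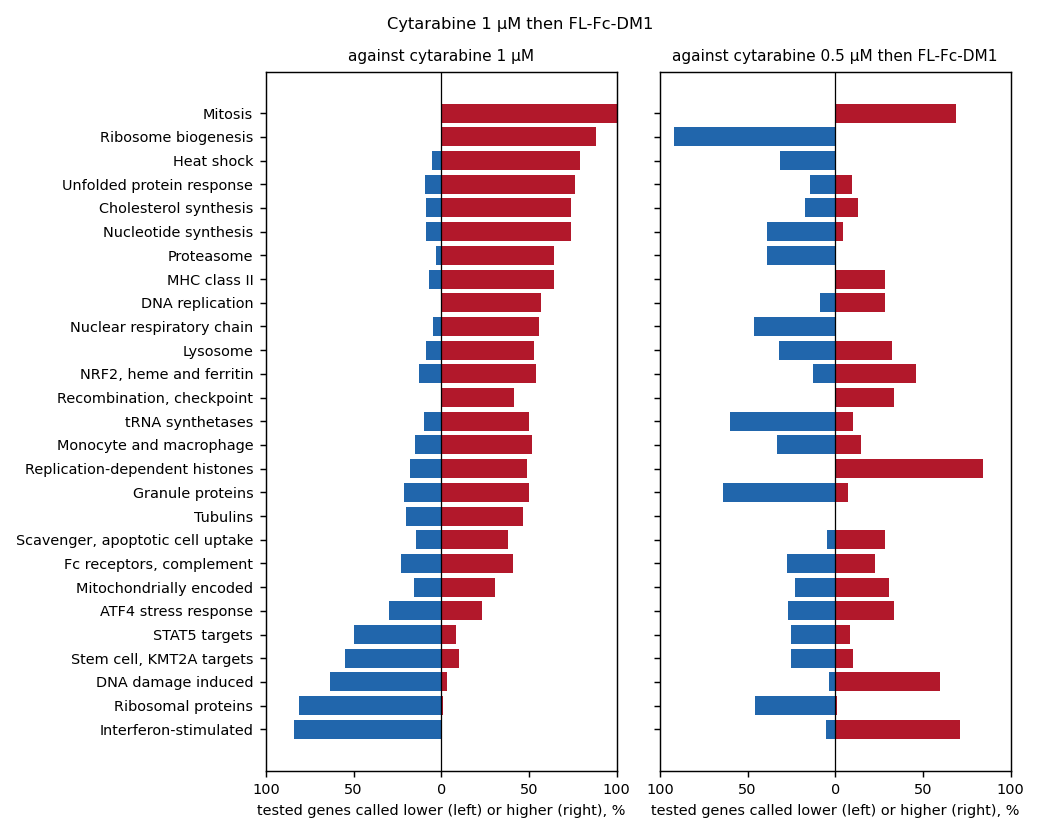
Percentage of each list's tested genes called lower (blue, left) or higher (red, right) after cytarabine 1 µM then FL-Fc-DM1, against cytarabine 1 µM alone (left panel) and against the 0.5 µM pretreatment (right panel), in 27 lists. In the left panel mitosis reaches 29 of 29 genes higher and interferon-stimulated genes 32 of 38 lower. In the right panel replication-dependent histones reach 43 of 51 higher, interferon-stimulated genes 27 of 38 higher and ribosome biogenesis 23 of 25 lower. Of the 51 histone genes 24 were under the filter's level at the lower dose.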

How the data were processed

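Poly(A) RNA was captured on oligo(dT) beads and sequenced on an Illumina instrument, per the labels' protocols. Tools named in the submitters' processing notes, with no role, are StringTie 1.3.1, HISAT2, edgeR, DESeq2 and fastp 0.18.0. Not given in the sources used here are the build, annotation, counting step and strand setting. Reads of overlapping or antisense genes therefore cannot be told apart, and no coordinates come from the table. The deposited table gives estimated counts per gene, with 9.62% to 11.3% of a library's values not whole (tolerance 0.01), and the authors' TPM values, which hold no depth and served to order genes by level, for the levels of LYZ and EEF1A1 and for shares of a library, with no test. The estimated counts were rounded before any test. Of 20375 genes, 645 lacked a symbol and 27 symbols occurred on several lines, and none of these is named.

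Genes that passed filterByExpr (minimum count 10, minimum total 15) were tested in edgeR 4.0.16 (R 4.3.3) with TMM scaling and 1 quasi-likelihood fit over all 15 libraries in 5 groups, which left 10 residual degrees of freedom. The standard error is the log2 change divided by the square root of the F statistic. Calls use Benjamini-Hochberg adjusted p under 0.05 over all genes tested. Counts were simulated for the double treatment against control over 11668 genes, with 200 genes set to change. On these counts the test called 77.9% of genes changed by 0.5 on the log2 scale. It called 91.8% of those changed by 1, 98.0% of those changed by 2 and 6 of 11476 unchanged ones. In the data 8798 of 12355 genes were called against control. Rates from so few changed genes do not carry over to the data, where the share of false calls was not tested. Where all libraries of a group were at 0, the floor was 3 counts for the group. Such floors and intervals reflect counting alone, because reads amplified by PCR and not tagged with molecular identifiers are not separate molecules.

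Genes were named by a rule: FLT3, the 12 largest rises and falls against control and the 6 largest in the other comparisons among called genes of at least 10 CPM without overlap, the 3 members of smallest p in the main direction of each of 55 lists and 2 in the other direction at 5 CPM or more, the 10 genes of highest TPM, and 11 key regulators. The promoter examples are outside it, and a few genes that the rule names are not reported here. The members and lists were chosen with earlier results of these data known, so no list is independent evidence of its direction. Lists are described by counts and medians and were not tested. Alternatives were DESeq2 size factors, no low-count filter, DESeq2 1.42.0, the 2 groups alone, a replicate block, limma 3.58.1 voom with a spread per group, each library left out, and a 2-fold threshold. Promoter sequences are from RefSeq, build GRCh38.p14.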

Additional observations from a re-analysis of the deposited data

How the results depend on the processing

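Against control the number of called genes was 8798, and it was 8804 with DESeq2 size factors, 9147 without the low-count filter, 8562 with DESeq2, 8325 in a fit of the 2 groups alone, 8408 with limma voom and 8322 to 8634 with each library left out in turn. Against cytarabine 1 µM it was 5646, with 4335 by limma voom at the lowest and 5192 to 5430 with a library left out. Against the 0.5 µM pretreatment it was 3494, with 2730 in the fit of the 2 groups alone at the lowest and 2772 to 3437 with a library left out. Asking for a change of at least 2-fold left 2447, 515 and 268 genes in the 3 comparisons. No named gene reversed its sign under a called value in any alternative run. Of the gene values recomputed against control, 3163 kept their side of the threshold, 15 lost the call (ABCA1, FDFT1, IMPDH1, MT-CO3 and RFXANK) and 2 gained it, FCGR1A and NFE2L2 without treated replicate 3. Against cytarabine 1 µM 3030 kept their side, 115 lost the call and 30 gained it, and against the 0.5 µM pretreatment these numbers were 3009, 127 and 39. The cause was not tested. Replicate numbers are shared between groups, but same-numbered libraries of control and the double treatment correlated by only -0.0086 to 0.027 in their deviations from the group means, so the numbers were not taken as pairs. With the replicate block 8811, 5701 and 3594 genes were called.

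The difference in the share of mitochondrially encoded genes was 1.67 percentage points in counts (1.599 to 1.72 with a library left out) and 3.00 in TPM. That of ribosomal protein genes was -2.64 points in counts (-2.79 to -2.42) and -6.31 in TPM, and that of the 20 genes of highest count was 1.41 points (1.36 to 1.47) and 2.37 in TPM. Treated libraries held fewer counts than control libraries, which limits genes of a few counts most.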
